A study of Mus musculus with 8 samples.

Results

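The genes Wt1, Tcf21, Upk3b, Upk1b, Lrrn4, Bnc1 and Bnc2, which mark the proepicardium and the mesothelium, were followed through cells sorted from the second heart field (SHF) of mouse embryos at embryonic day 9.5. They were taken from a fixed list of 7 names, and a gene entered when it had a row among the 16302 genes of the table. Upk1b had none and was not analysed here, so 6 genes are described, and all 6 passed the filter on low values that left 16153 genes for testing. Cells were sorted from micro-dissected, pooled embryos of 2 lines. GFP+ cells (3 libraries) came from the Hoxb1GFP line, in which green fluorescence marks Hoxb1 expression, and Hoxb1-expressing progenitors belong to the posterior SHF. Tomato+ cells (3 libraries) came from Mef2c-Cre;RosatdT embryos, in which Cre driven by the anterior heart field enhancer of Mef2c switches on red fluorescence in those cells and in their descendants. Cells without fluorescence gave 1 GFP- library and 1 Tomato- library. The paper's methods appear to use the symbol Hoxb1- for the GFP allele, and an effect of that allele on the levels was not tested. The paper's resource list names a C57Bl/6J strain background without tying it to these embryos, and sex was not given in the sources used here. Because each colour comes from its own line, the sorted population and the line cannot be told apart in any comparison of GFP+ with Tomato+ cells.

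The proepicardium is a transient cluster of mesothelial cells on the septum transversum, beside the venous pole of the heart tube. Its cells cross to the heart, cover it as the epicardium and give rise to fibroblasts and mural cells of the coronary vessels. Mesothelium is the flat epithelium of mesodermal origin that lines the body cavities, and at this stage it also faces the dorsal wall of the pericardial cavity where the SHF lies. Among the genes followed, Wt1 and Tcf21 encode transcription factors, Bnc1 and Bnc2 encode the zinc finger proteins basonuclin 1 and 2, and Upk3b and Lrrn4 encode membrane proteins of the mesothelial surface.

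The promoters of Lrrn4, Tcf21 and Upk3b are shown because these genes had the largest fold changes among the 6. RefSeq promoters on GRCm38.p6, running from 250 bases before to 50 bases after a start site, were matched for 5 of the 7 genes, and Wt1 and Upk1b had no entry. Capitals mark matches to 3 strings of letters that were searched on both strands. The string of GATA factors was AGATAA. That of WT1, in which N is any base, was GNGTGGGNG. For TEAD factors it was GGAATG.
Lrrn4, chr2:132880813-132881112, minus strand: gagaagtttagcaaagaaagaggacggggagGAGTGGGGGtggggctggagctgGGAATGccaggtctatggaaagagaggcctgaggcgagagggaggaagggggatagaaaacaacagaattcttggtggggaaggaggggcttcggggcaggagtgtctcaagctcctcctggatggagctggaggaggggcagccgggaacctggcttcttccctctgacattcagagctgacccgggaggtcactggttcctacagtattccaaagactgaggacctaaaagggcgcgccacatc
Tcf21, chr10:22820094-22820393, minus strand: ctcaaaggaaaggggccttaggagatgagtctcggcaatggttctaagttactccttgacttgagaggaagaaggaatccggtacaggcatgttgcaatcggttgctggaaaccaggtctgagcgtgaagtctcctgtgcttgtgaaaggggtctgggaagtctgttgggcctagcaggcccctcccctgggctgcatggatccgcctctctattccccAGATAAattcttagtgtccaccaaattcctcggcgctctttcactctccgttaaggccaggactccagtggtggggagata
Upk3b, chr5:136038246-136038545, plus strand: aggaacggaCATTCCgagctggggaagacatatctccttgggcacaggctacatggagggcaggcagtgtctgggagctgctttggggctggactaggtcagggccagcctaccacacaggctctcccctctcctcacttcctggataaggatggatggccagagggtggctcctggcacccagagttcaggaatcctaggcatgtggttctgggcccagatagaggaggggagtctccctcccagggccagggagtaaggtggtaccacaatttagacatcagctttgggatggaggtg
Lrrn4 held a WT1 match starting 219 bases and a TEAD match starting 196 bases before the start site. Tcf21 held a GATA match starting 31 bases before it, and Upk3b a TEAD match on the opposite strand 241 bases before it. No 2 of these matches overlapped. Of 32851 RefSeq promoters, 11.2% held the GATA string, 14.3% the WT1 string and 14.7% the TEAD string, so each of them is common. Searches for CAGCTG, bound by TCF21 and other bHLH factors (16.3% of all promoters), for TGATNNAT, bound by HOX with PBX proteins (8.85%), and for AGGTGTNA, bound by T-box factors (3.03%), gave no match in these windows. The GC content was 58.7% for Upk3b, 58% for Lrrn4 and 53.3% for Tcf21, beside a median of 52.7% over all promoters.

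The 8 libraries held 22668185 to 41597870 reads, of which 12765045 to 27249149 lay outside mitochondrial genes. Levels are given as normalized reads (each library's reads over its size factor), and 3 reads, the floor for a gene at 0, were worth 2.16 to 4.53 of them. In both positive groups replicate 1 was close to replicate 3, with a chi-square per degree of freedom of 2.35 in GFP+ and 2.38 in Tomato+ cells, against 72.4 to 93.0 for pairs with replicate 2. Results with these near copies averaged stand beside those from 3 libraries per group for the 6 genes and the gene lists. The paper speaks of biological replicates. Since the labels do not tie each replicate to its own pool of embryos, p-values here reflect only the spread among these libraries, which may be technical. Hoxb1, whose locus carries the green reporter, had 720 to 986 normalized reads in GFP+ and 292 to 415 in Tomato+ cells, and 60.8 in GFP- and 199 in Tomato- cells. In bulk samples such as these, more cells of a type and more RNA per cell cannot be told apart.

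Which of these genes set Hoxb1-expressing cells apart from the Mef2c-Cre lineage was asked by comparing GFP+ with Tomato+ cells. Lrrn4, Tcf21, Upk3b and Bnc1 were higher in GFP+ cells, Bnc2 was lower, and Wt1 did not pass the test (limma on log2 normalized reads with a pseudocount of 1, Benjamini-Hochberg adjusted p under 0.05 over all genes). Thus 4 of 6 genes were called higher, where 19.7% of all genes tested were, and 1 of 6 lower, where 20% were. Calls were frequent, with 39.7% of all genes passing in one direction or the other. With totals of reads outside mitochondrial genes as the scaling, the median of all genes shifted by -0.13 on the log2 scale, and the share of calls that were higher in GFP+ cells was 37.3%, beside 49.7% in the main analysis. Bnc1 did not pass under that scaling, and the other 4 genes did. With replicates 1 and 3 averaged, 1 of 6 genes was called higher and 0 lower, where 8.89% and 9.25% of all genes were (18.1% in either direction). That gene was Lrrn4. Groups of 3 did not overlap for 5 of the 6 genes, as for 54.6% of all genes. The median log2 fold change of the 6 genes was 1.16, beside -0.01 over all genes tested.

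Lrrn4 (chromosome 2, 132868305 to 132880891, minus strand, GRCm38, protein-coding) encodes a leucine-rich repeat protein of the cell membrane and is known as a mesothelial marker. It had 598, 439 and 544 normalized reads in GFP+ cells, against 45.5, 35.4 and 54.7 in Tomato+ cells. Every GFP+ library stood far above every Tomato+ library, and the lowest GFP+ value was that of replicate 2. The means were 527 ± 80.8 in GFP+ and 45.2 ± 9.64 in Tomato+ cells (n = 3 each, SD), an 11.5-fold difference (log2 fold change 3.52, SE 0.25, limma adjusted p = 5.24e-05). It was called in all 17 alternative analyses, with adjusted p from 5.00e-38 to 0.00165 by limma, edgeR or DESeq2. The GFP- library had 71.2 and the Tomato- library 58.9 normalized reads, both just above the highest Tomato+ library, and the counting interval of the Tomato- value (41.9 to 80.5) took in 2 of the 3 Tomato+ libraries.

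Tcf21 (chromosome 10, 22817281 to 22820174, minus strand) encodes a bHLH transcription factor that marks the proepicardium and the epicardium, where it is needed for cardiac fibroblasts, and it is also expressed in pharyngeal mesoderm. It had 204, 113 and 156 normalized reads in GFP+ cells, against 50.1, 52.4 and 53.9 in Tomato+ cells. The groups did not overlap, and the GFP+ libraries were spread widely. The Tomato+ libraries were within a few normalized reads of each other. That is closer than their counting intervals (37.7 to 65.2, 36.9 to 72.2 and 42.4 to 67.6), each of which took in all 3 values. The means of 158 ± 45.4 in GFP+ and 52.1 ± 1.95 in Tomato+ cells (n = 3 each, SD) differed 2.91-fold (log2 fold change 1.54, SE 0.30, limma adjusted p = 0.00552). With replicates 1 and 3 averaged the log2 fold change was 1.44 and the adjusted p 0.113, the highest of its alternatives, which began at 5.17e-05 (limma, edgeR and DESeq2). In the negative cells the levels were 24.3 (GFP-) and 33.2 (Tomato-), below every positive library, although their counting intervals (16.2 to 35.2 and 20.8 to 50.3) overlapped each other. An antisense gene, Gm10824, overlaps Tcf21 without sharing exon bases.

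Upk3b (chromosome 5, 136038496 to 136046487, plus strand) encodes uroplakin 3b, a membrane protein of mesothelial cells that pairs with the product of Upk1b. Its levels were 393, 135 and 385 normalized reads in GFP+ cells, against 115, 103 and 90.6 in Tomato+ cells. Replicate 2 of the GFP+ cells was at 0.35 times the mean of replicates 1 and 3, just above the highest Tomato+ library, so the groups did not overlap but came close. The means of 305 ± 147 in GFP+ and 103 ± 12.0 in Tomato+ cells (n = 3 each, SD) differed 2.66-fold (log2 fold change 1.41, SE 0.41, limma adjusted p = 0.0280). The call was lost when any library but replicate 2 of the GFP+ cells was left out. The limma adjusted p was then 0.102 without replicate 1 and 0.102 without replicate 3 of the GFP+ cells, and 0.0552, 0.0638 and 0.0771 without replicates 1, 2 and 3 of the Tomato+ cells. Averaging replicates 1 and 3 gave a log2 fold change of 1.15 and an adjusted p of 0.140, within a range over all alternatives of 0.000789 to 0.140 (limma, edgeR and DESeq2). Its negative libraries lay far apart, with 3.47 normalized reads in GFP- cells, from 4 reads, and 251 in Tomato- cells.

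Wt1 (chromosome 2, 105126529 to 105173616, plus strand) encodes a zinc finger transcription factor of the proepicardium, the epicardium and the coelomic epithelium, and is also expressed in the urogenital ridge. It had 540.5, 481 and 562 normalized reads in GFP+ cells, against 373, 161 and 383 in Tomato+ cells. All GFP+ libraries were above all Tomato+ libraries, as for 27.2% of all genes tested in that direction, and replicate 2 of the Tomato+ cells was at 0.43 times the mean of the other two. The means were 528 ± 41.7 in GFP+ and 306 ± 125 in Tomato+ cells (n = 3 each, SD), a log2 fold change of 0.88 (SE 0.32, 95% interval 0.14 to 1.63) whose limma adjusted p of 0.0605 missed the threshold. It passed with DESeq2 on recovered reads (adjusted p = 0.0368), and in limma without replicate 2 of the Tomato+ cells (log2 fold change 0.48, adjusted p = 0.0157) and without replicate 3 of them (1.10, adjusted p = 0.0478), and over all alternatives the adjusted p ran up to 0.146. Without replicate 2 the fold change was thus smaller and the spread narrower. The Tomato- library, with 418 normalized reads, was above every Tomato+ library, and the GFP- library had 33.9. The antisense gene Wt1os begins 19 bases from Wt1 and shares no exon bases with it.

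The basonuclins differed from each other. Bnc1 (chromosome 7, 81966672 to 81992292, minus strand), known from keratinocytes and germ cells and expressed in mesothelium, had 498, 273 and 516 normalized reads in GFP+ cells, against 197, 285 and 188 in Tomato+ cells. Its groups overlapped, because replicate 2 was the lowest GFP+ library and also the highest Tomato+ library. The means of 429 ± 136 in GFP+ and 223 ± 53.1 in Tomato+ cells (n = 3 each, SD) differed 1.87-fold (log2 fold change 0.91, SE 0.29, limma adjusted p = 0.0388). With the near copies averaged the log2 fold change was 0.66 and the adjusted p 0.257, the highest of its alternatives, which began at 0.00685 (limma, edgeR and DESeq2). The limma adjusted p was 0.130 without replicate 1 and 0.135 without replicate 3 of the GFP+ cells, and 0.106 without replicate 1 and 0.113 without replicate 3 of the Tomato+ cells. A pseudogene on the opposite strand, 4833418N17Rik, shares 98 exon bases with Bnc1, which is 2.11% of its exons, and the libraries keep no strand.

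Bnc2 (chromosome 4, 84275095 to 84675275, minus strand), a basonuclin found in mesenchymal cells as well, was the only one of the 6 called lower in GFP+ cells. It had 1533, 1782 and 1431 normalized reads in GFP+ cells, against 2379, 2135 and 2444 in Tomato+ cells. The groups did not overlap, and replicate 2 was the one nearest to the other group on both sides. The means of 1582 ± 180.2 in GFP+ and 2319 ± 163 in Tomato+ cells (n = 3 each, SD) gave a log2 fold change of -0.56 (SE 0.11, limma adjusted p = 0.00574). Averaging the near copies gave -0.48 with an adjusted p of 0.103, the highest of its alternatives, which began at 9.28e-05 (limma, edgeR and DESeq2). Its level was 561 normalized reads in GFP- and 1880.2 in Tomato- cells.

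**Figure D1:**
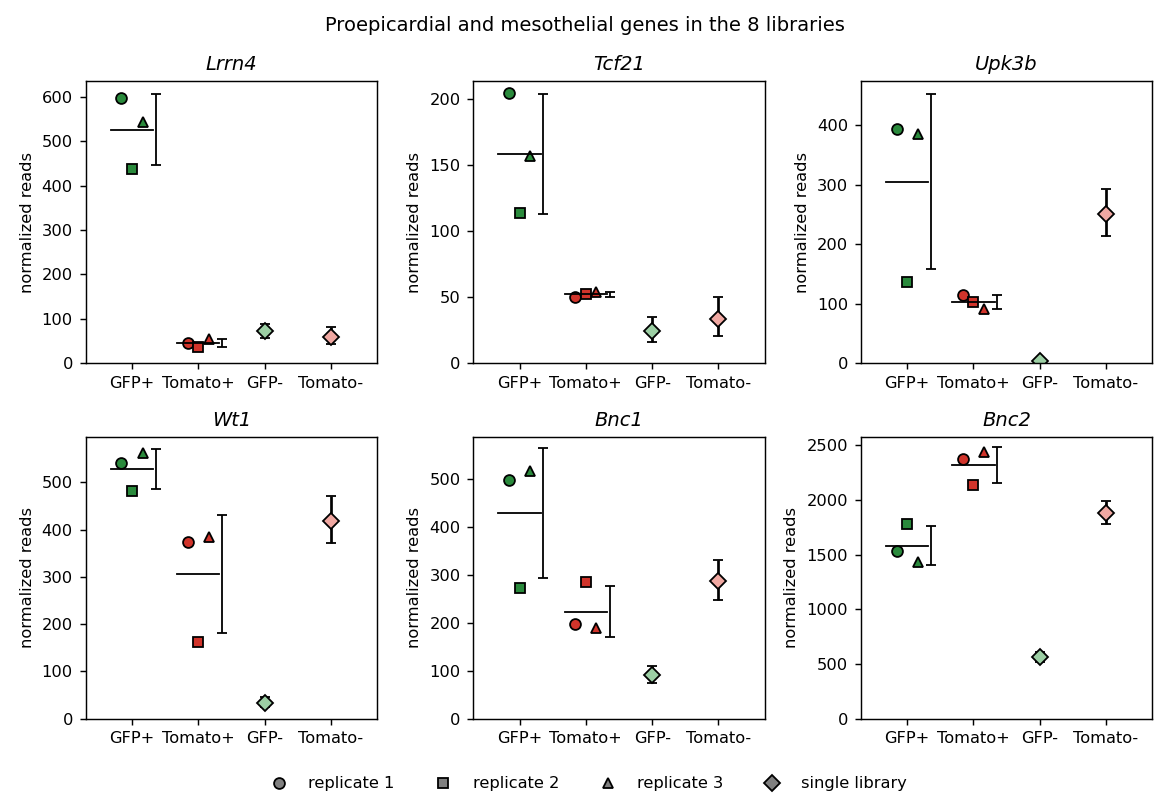
Normalized reads of the 6 genes in each of the 8 libraries, on a linear axis from 0, for GFP+, Tomato+, GFP- and Tomato- cells. Symbols give the replicate, horizontal lines the mean and side bars the SD of 3 libraries, and bars on single libraries the 95% counting interval. Lrrn4 stands out in GFP+ cells, Bnc2 is highest in Tomato+ cells, and for all 6 genes the GFP- library is below every GFP+ library.

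**Figure D2:**
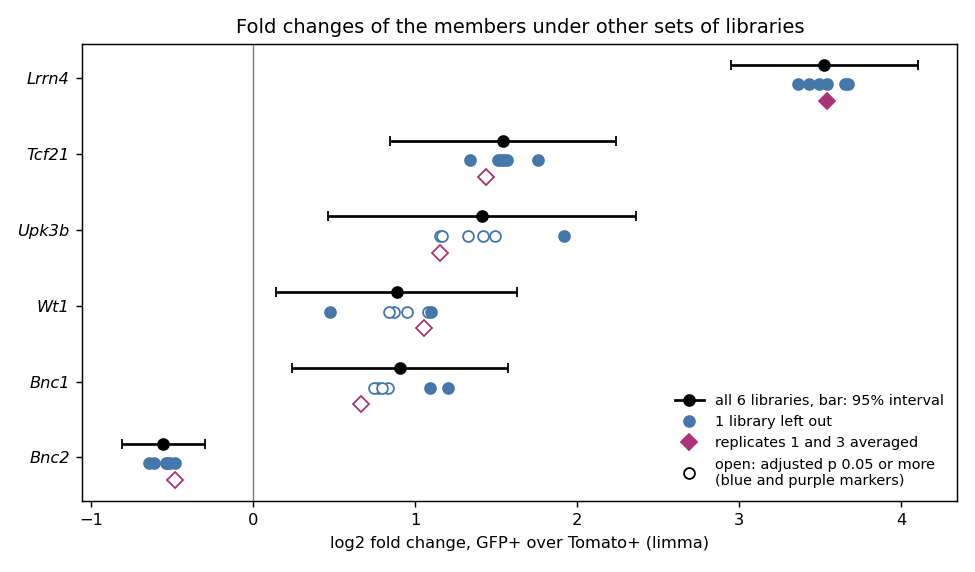
Log2 fold change of GFP+ over Tomato+ cells for each gene with all 6 libraries (black, bar 95% interval), with 1 library left out in turn (blue) and with replicates 1 and 3 averaged (purple), where open blue and purple markers have a limma adjusted p of 0.05 or more. No gene changes direction, and only Lrrn4 keeps filled markers throughout.

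Levels were also set per length of all annotated exons. This compares genes only roughly, since the transcripts expressed and the amplification of each gene were not measured. In GFP+ cells Bnc2 was highest with a mean of 193.5 normalized reads per kb (175 to 218), and Lrrn4 came next with 142 (118 to 161). Bnc1 (92.4), Upk3b (86.3), Wt1 (85.2) and Tcf21 (67.2) followed in normalized reads per kb, and their libraries overlapped. In Tomato+ cells Bnc2 was again highest with 284 normalized reads per kb (261 to 299). Wt1 (49.4), Bnc1 (48.1), Upk3b (29.1) and Tcf21 (22.2) followed by their means, and the libraries of Wt1 (26.1 to 61.9) overlapped those of Bnc1 (40.6 to 61.2) and Upk3b (25.7 to 32.5). Tcf21 (21.3 to 23.0) lay below these, and Lrrn4 was the lowest with 12.2 normalized reads per kb (9.53 to 14.7). Lrrn4 thus stood second of 6 in GFP+ cells and last in Tomato+ cells.

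The negative cells allow each reporter-positive population to be set against the rest of its own dissected region, without a test since each negative is 1 library. In the Tomato- library 12988912 of 26740641 reads lay outside mitochondrial genes, a smaller share than in any other library. In the GFP- library it was 22085836 of 32793811 reads. To stand apart, a gene needed a difference of 2-fold or more between the negative library and each positive one, all in one direction, and 50 or more normalized reads on its higher side. All 6 genes stood apart as higher in GFP+ than in GFP- cells, where 4.34% of the 16302 genes did, and 0 stood apart as lower, where 3.69% did. Markers of several other cell types also stood apart as higher in GFP+ cells, as given below. Upk3b had the highest ratio, 87.7 (95% counting interval 34.3 to 322, which covers counting error in the negative library only, as for the ratios that follow). Wt1 was 15.6 times (11.4 to 21.9), Lrrn4 7.40 times (5.96 to 9.30) and Tcf21 6.49 times (4.49 to 9.77) as high in GFP+ as in GFP- cells. The basonuclins had the lowest ratios, 4.70 (3.89 to 5.75) for Bnc1 and 2.82 (2.61 to 3.05) for Bnc2.

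In the other line none of the 6 genes stood apart as higher in Tomato+ than in Tomato- cells, where 8.1% of all genes did. Upk3b stood apart as lower, as did 6.77% of all genes, with a ratio of Tomato+ to Tomato- of 0.41 (0.35 to 0.48). Its Tomato+ libraries held 90.6 to 115 normalized reads, against 251 in Tomato- cells. Wt1 (0.73), Lrrn4 (0.77) and Bnc1 (0.78) also had every Tomato+ library below the Tomato- library, while Tcf21 (1.57) and Bnc2 (1.23) had every Tomato+ library above it. Upk3b, Wt1, Lrrn4 and Bnc1 thus had all GFP+ libraries above GFP- and all Tomato+ libraries below Tomato-, a pattern shown by 11.6% of all genes. Bnc1 nearly misses this pattern at replicate 2 of the Tomato+ cells, with 285 normalized reads against 287 in Tomato- cells. That gap is well inside the counting interval of the Tomato- value (248 to 331). With totals of reads outside mitochondrial genes as the scaling, that library was above the Tomato- library, and 3 of the 6 genes (Upk3b, Wt1 and Lrrn4) showed the pattern, beside 8.13% of all genes. For Lrrn4 and Wt1 the highest Tomato+ library was then barely below the Tomato- library. In the main scaling, replicates 1 and 3 of the Tomato+ cells had 373 and 383 normalized reads of Wt1. Both values lay inside the counting interval of its Tomato- value (370 to 471).

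**Figure D3:**
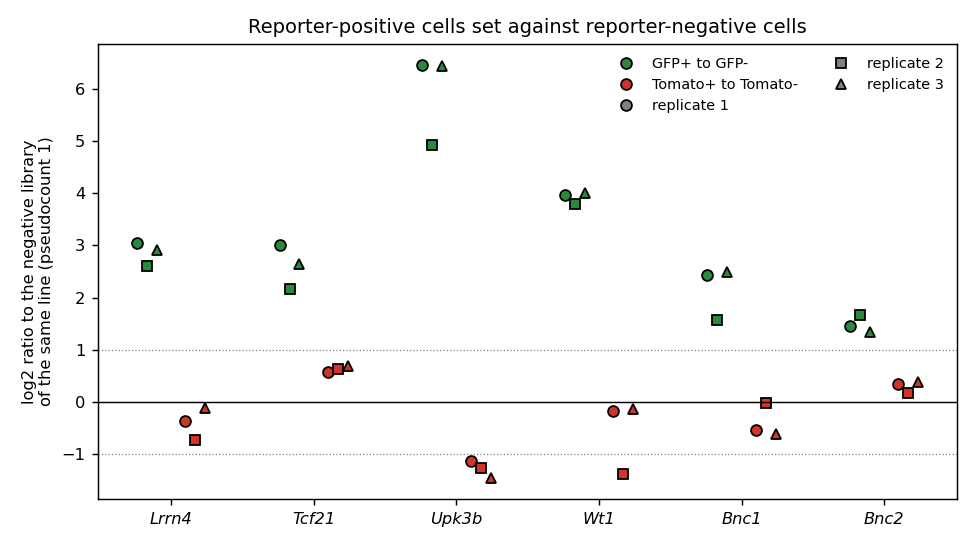
Log2 ratio of each positive library to the single negative library of its line (pseudocount 1), with GFP+ to GFP- in green and Tomato+ to Tomato- in red and symbols for replicates. Dotted lines mark 2-fold. All green points lie above the upper dotted line, and the red points of Upk3b lie below the lower one.

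The 2 negative libraries differed too. Wt1, Upk3b, Bnc1 and Bnc2 were at least 2-fold lower in GFP- than in Tomato- cells, where 17.8% of all genes were, and 0 were at least 2-fold higher, where 15.2% were. Wt1 had 33.9 normalized reads in GFP- and 418 in Tomato- cells, and Upk3b had 3.47 in GFP- and 251 in Tomato- cells. Tcf21 (24.3 in GFP-, 33.2 in Tomato-) and Lrrn4 (71.2 in GFP-, 58.9 in Tomato-) had overlapping counting intervals.

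Markers of other cells moved along with these comparisons, and their part in the results was not tested. Red blood cell markers (7 of 7 called lower in GFP+ cells) summed to 508 to 891 normalized reads in GFP+ and 112517 to 137269 in Tomato+ libraries, and to 277660 in GFP- and 261459 in Tomato- cells. Cardiomyocyte markers (5 of 6 higher) summed to 11327 to 12640.0 in GFP+ and 746 to 1266 in Tomato+ libraries, with 5175 in GFP- and 538 in Tomato- cells. Of the 8 foregut endoderm markers 6 were higher and 1 lower, with sums of 7204 to 8107 in GFP+ and 1873 to 1939 in Tomato+ libraries, and 2115 in GFP- and 1767 in Tomato- cells. Neural crest and neural tube markers summed to 3619 to 4402 in GFP+ and 8922 to 10298 in Tomato+ libraries (0 of 6 higher, 2 lower), with 10677 in GFP- and 10953 in Tomato- cells. Endothelial markers summed to 1575 to 1690.5 in GFP+ and 2271 to 2609 in Tomato+ libraries (0 of 6 higher, 3 lower), with 2516 in GFP- and 3439 in Tomato- cells. All 8 markers tested for SHF mesoderm were higher in GFP+ cells, among them Fgf10 and Tbx1, which the paper names as anterior SHF markers. The 8 summed to 8685 to 9923 in GFP+ and 5148 to 5331 in Tomato+ libraries, with 2346 in GFP- and 5067 in Tomato- cells. Of the 8, 7 stood apart as higher in GFP+ than in GFP- cells. In the Tomato line Osr1 stood apart as higher in Tomato+ cells. Fgf10 stood apart as lower there, with a mean of 159 normalized reads against 397 in Tomato- cells. Averaging the near copies gave 5 SHF markers higher, 5 endoderm markers higher and 1 lower, and 6 cardiomyocyte markers higher. The averaged counts of red blood cell (7 lower), endothelial (3 lower) and neural (2 lower) markers equalled those from 3 libraries. Beside GFP- cells, 6 of 8 endoderm and 2 of 6 cardiomyocyte markers stood apart as higher in GFP+ cells and 0 as lower. By contrast 7 of 7 red blood cell, 6 of 6 neural and 3 of 6 endothelial markers stood apart as lower and 0 as higher.

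The intermediate mesoderm and urogenital ridge, which also express Wt1, were followed with 8 markers, of which 3 were higher and 3 lower in GFP+ cells, and 1 higher and 3 lower with replicates 1 and 3 averaged. The summed level was 3771 to 4235 normalized reads in GFP+ and 5335 to 5925 in Tomato+ libraries, with 2198 in GFP- and 5541 in Tomato- cells. Pax2, a factor of the nephric duct, had 80.2 ± 56.1 in GFP+ and 978 ± 83.1 in Tomato+ cells (n = 3 each, SD), and 70.4 in GFP- and 1113 in Tomato- cells. Lhx1, which acts in the same tissue, had 96.8 ± 16.8 in GFP+ and 1785 ± 342 in Tomato+ cells, and 66.0 in GFP- and 2096 in Tomato- cells. Emx2 had 68.1 ± 34.8 in GFP+ and 255 ± 47.8 in Tomato+ cells, and 0 reads in GFP- against 387 normalized reads in Tomato- cells. The other 5 markers went differently. Osr1 (838 in GFP+, 388 in Tomato+ cells), Gata3 (290.3 in GFP+, 104 in Tomato+ cells) and Sall1 (2092 in GFP+, 1542 in Tomato+ cells) were higher in GFP+ cells. Pax8 (216 in GFP+, 190 in Tomato+ cells) and Six2 (367 in GFP+, 356 in Tomato+ cells) did not pass the test. Set against GFP- cells, 5 of the 8 markers (Osr1, Gata3, Pax8, Six2 and Emx2) stood apart as higher in GFP+ cells and 0 as lower. For the Tomato line it was 3 (Osr1, Gata3 and Six2) as higher in Tomato+ than in Tomato- cells and 0 as lower.

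Surface ectoderm markers (0 of 5 higher, 3 lower) summed to 1070.0 to 1363 normalized reads in GFP+ and 1692 to 1875 in Tomato+ libraries, with 605 in GFP- and 2214 in Tomato- cells. Hepatoblast markers (0 of 3 tested higher, 2 lower) reached 139 to 176 in GFP+ and 170 to 528 in Tomato+ libraries, with 1996 in GFP- and 589 in Tomato- cells. The hepatoblast markers Afp, Hnf4a and Fgb and the red blood cell factor Klf1 were at 0 in at least 1 positive library. Branchiomeric muscle progenitors, which also express Tcf21, had 4 markers tested, of which 3 were higher and 1 lower, with sums of 2148 to 2482 in GFP+ and 1519 to 1577 in Tomato+ libraries and of 618 in GFP- and 1115 in Tomato- cells. After averaging, 2 surface ectoderm and 1 hepatoblast markers were lower, and 1 branchiomeric marker was higher and 0 lower. Relative to GFP- cells, 4 of 4 branchiomeric and 3 of 5 surface ectoderm markers stood apart as higher in GFP+ cells and 0 as lower. Of the 3 hepatoblast markers tested, 2 stood apart as lower and 0 as higher. Myf5, Myod1 and Msc were not among the genes of the table, and neither were some other listed markers, such as Fgf8, Sox17, Nkx2-5 and Nppa.

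Of 16 other genes of the proepicardium, epicardium and septum transversum, 11 were higher and 4 lower in GFP+ cells, and their median log2 fold change was 0.89. With replicates 1 and 3 averaged, 7 were higher and 1 lower. Gata4, a zinc finger factor needed for the proepicardium to form, had 2238, 2170 and 2192 normalized reads in GFP+ cells, against 206, 159 and 181 in Tomato+ cells (log2 fold change 3.60, SE 0.13, limma adjusted p = 3.58e-06). Its relatives Gata5, with 434 ± 8.85 in GFP+ and 27.5 ± 8.88 in Tomato+ cells, and Gata6, with 1828 ± 136 in GFP+ and 312 ± 30.8 in Tomato+ cells (n = 3 each, SD), were also higher. The groups stood well apart for all 3 factors, and the 3 are also expressed in myocardium and foregut endoderm. Aldh1a2, which makes retinoic acid, averaged 3663 normalized reads in GFP+ and 843 in Tomato+ cells, and Tbx18, a T-box factor of the proepicardium, 904 in GFP+ and 458 in Tomato+ cells, both higher. Mab21l2, which acts in the septum transversum, went the other way with 146 in GFP+ and 793 in Tomato+ cells, and Scx, Itga4 and Lhx2 were lower as well. The count of 11 higher became 7 without replicate 1 of the GFP+ cells, and the 4 lower became 1 or 2 without replicate 1 or 3 of either group. Against GFP- cells, 13 of the 16 stood apart as higher in GFP+ cells and none as lower, as for the 6 genes described here. In the Tomato line 2 stood apart as higher in Tomato+ cells and 1 as lower. Aldh1a2, Tbx18 and Mab21l2 and the other genes given outside the naming rule were chosen after their values were seen.

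Among 11 further genes of the mesothelial surface and cytoskeleton, 6 passed as higher and 3 as lower, and the median log2 fold change was 1.49. Msln was listed with them but was not among the genes of the table. Averaging replicates 1 and 3 left 3 higher and 2 lower. The keratins Krt8, with 217 ± 23.4 normalized reads in GFP+ and 41.1 ± 3.95 in Tomato+ cells, and Krt18, with 370 ± 59.9 in GFP+ and 57.2 ± 24.3 in Tomato+ cells (n = 3 each, SD), were higher, and these form the intermediate filaments of simple epithelia in general. Gpm6a, a membrane protein known from neurons and mesothelium, was lower with 70.5 ± 17.1 in GFP+ and 294 ± 52.2 in Tomato+ cells. Muc16, a mucin of mesothelial surfaces, did not pass the test, with 6.58, 24.9 and 17.6 in GFP+ and 26.4, 21.2 and 25.2 in Tomato+ libraries. Negative libraries held 1.74 (GFP-) and 204 (Tomato-) normalized reads of it, so that, as with Upk3b, the Tomato- library was above every Tomato+ library. Against GFP- cells 3 of the 11 stood apart as higher, and in the Tomato line 2 stood apart as lower in Tomato+ than in Tomato- cells.

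The relatives measured, which are those of Lrrn4, Tcf21 and Wt1, were mostly lower in GFP+ cells. Those listed for Upk3b had no row, and none were listed for Bnc1 or Bnc2. Of 16 relatives listed 6 were in the table, and 0 of these were higher and 5 lower in GFP+ cells, with a median log2 fold change of -1.63. Of these, 4 were lower after averaging. Lrrn1, a leucine-rich repeat protein related to Lrrn4, had 1487 ± 83.4 normalized reads in GFP+ and 5149 ± 400 in Tomato+ cells (n = 3 each, SD, log2 fold change -1.79, SE 0.09, limma adjusted p = 1.32e-05). Lrrn3 had 124 ± 59.1 in GFP+ and 317 ± 28.4 in Tomato+ cells, and the bHLH factor Tcf15, a regulator of somites, 23.0 ± 12.3 in GFP+ and 117 ± 24.2 in Tomato+ cells. Lrrn4 therefore differed in direction from both relatives of its family that were measured. None of the 6 relatives stood apart as higher in GFP+ than in GFP- cells.

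Genes described as WT1 targets split between the groups, with 6 of 13 higher, 4 lower and a median log2 fold change of 0.37. With replicates 1 and 3 averaged, 5 were higher and 2 lower. Podxl, Itga4, Aldh1a2 and Lhx9 among them also stand in the lists above. Nphs1, which encodes nephrin of the kidney podocyte, was lower, with 7.31, 0 and 16.5 normalized reads in GFP+ and 147, 279 and 159 in Tomato+ libraries, and with 11.3 in GFP- and 347 in Tomato- cells. Spry1, an inhibitor of receptor tyrosine kinase signalling, had 399 ± 46.0 in GFP+ and 84.0 ± 4.10 in Tomato+ cells, and Cdh1, the epithelial cadherin, 960.2 ± 124 in GFP+ and 219 ± 75.2 in Tomato+ cells (n = 3 each, SD). Of 9 partners and cofactors of WT1, 6 were higher and 0 lower, with a median of 0.72 and 4 higher after averaging. Wtip, a LIM protein first described as binding WT1, had 278 ± 59.1 in GFP+ and 158 ± 5.22 in Tomato+ cells, Pawr, which represses transcription with WT1, 878 ± 83.8 in GFP+ and 226 ± 51.3 in Tomato+ cells, and Trp53 6395 ± 342 in GFP+ and 2600.3 ± 730 in Tomato+ cells. Against GFP- cells, 7 of the 13 targets and 0 of the 9 partners stood apart as higher in GFP+ cells. In the Tomato line 2 targets and 1 partner stood apart as lower in Tomato+ than in Tomato- cells.

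**Figure D4:**
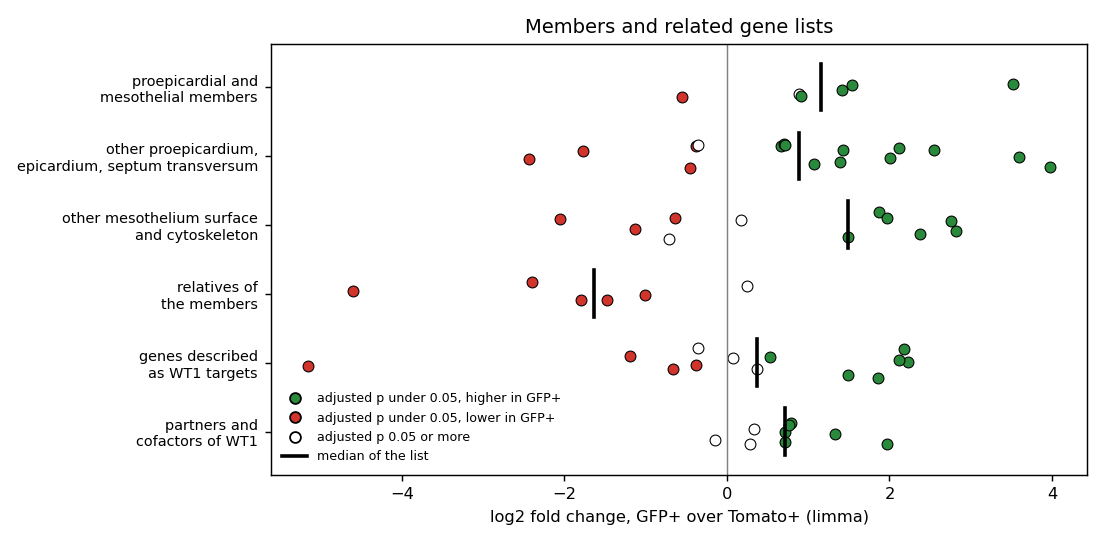
Log2 fold change of GFP+ over Tomato+ cells for the 6 genes and for 5 lists of related genes, 1 point a gene, filled where the limma adjusted p is under 0.05 (green higher, red lower in GFP+ cells), with the list median as a bar. Points are spread at random in height for legibility, and the relatives are the only list with a median below 0.

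Genes whose levels ran most alike with each of the 6 across the 8 libraries were ranked by Pearson's r on log2 levels, over 11873 genes averaging 50 or more normalized reads, as a description, since libraries of a line are not separate observations of it. Wt1 ran most like Etl4 (0.99) and Stk26 (0.99), and Upk3b like Klf5 (0.98) and also Stk26 (0.98). Stk26, a protein kinase, averaged 1070.4 normalized reads in GFP+ and 782 in Tomato+ cells, with 265 in GFP- and 983 in Tomato- cells. Wt1 and Upk3b, and Bnc1 as well, had the same order of means, with GFP+ cells highest, then Tomato-, Tomato+ and GFP- cells. Tcf21 ran most like Isl1 (0.99) and Ptpn21 (0.98). Isl1, a LIM homeodomain factor of SHF progenitors, averaged 1465 in GFP+ and 847 in Tomato+ cells, with 508 in GFP- and 689 in Tomato- cells, the same order of the 4 populations as for Tcf21. Lrrn4 ran most like Obsl1 (0.997) and Igf2bp2 (0.99), Bnc1 like Pdlim7 (0.98) and Hlx (0.98), and Bnc2 like the axon guidance receptors Robo1 (0.99) and Unc5c (0.99). No gene was among the closest 2 for more than 1 of the 6 apart from Stk26.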

How the data were processed

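RNA of cells sorted from the second heart field of pooled embryos at embryonic day 9.5 was sequenced in 8 libraries, grouped by their titles. Amplification of 2 ng of RNA used isothermal priming from a single primer, which loses the strand. Reads were processed with bcl2fastq 2.17.1.14, STAR 2.5.2, HTSeq and DESeq2 in R 3.3.4, as the submitters' processing notes name them, and the genome was GRCm38. A methods paragraph of the paper that covers sorted cells instead names RSEM, an Ensembl gene build and single-end sequencing, so which annotation lies behind these counts is not settled.

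The authors' deposited table lists 16302 genes. Its library columns are, as deposited, a signal made by the authors through division of reads by 1 size factor per library, beside a column of their mean. The deposited log2 column, score column (Wald statistic) and p-value columns hold the authors' own comparison and were not used. The signal of each library came out as whole reads, within 0.01, for 100% of values.

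The main test of GFP+ against Tomato+ libraries was limma-trend (limma 3.58.1, R 4.3.3), two-sided and without covariates, on the log2 of normalized reads plus 1. It covered 16153 genes whose mean over these 6 libraries reached 10. Folds are on this scale and understate changes of low genes. Alternatives were edgeR 4.0.16 and DESeq2 1.42.0 on the recovered reads, TMM scaling, totals without mitochondrial genes, pseudocounts of 0.5 and 5, no filter or a mean of 50, all 8 libraries in 1 fit, a replicate block, averaging replicates 1 and 3, and leaving out each library. The scripts were tested on simulated data. Counting intervals are 95% exact Poisson intervals, and, like the floor of 3 reads, they hold no error but that of counting, because reads from amplified cDNA are not separate molecules.

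Coordinates and exon lengths are those of GENCODE M21 on GRCm38, in which 15768 symbols (96.7%) matched 1 gene each. Named were the 6 genes, per list up to 3 called genes, by size of log2 fold change, whose groups did not overlap and whose higher group averaged 100 or more (otherwise the 2 with the highest mean), the 2 genes most like each of the 6 over 8 libraries, and Hoxb1 and Mef2c as checks. Mef2c averaged 1991 normalized reads in GFP+ and 1444 in Tomato+ cells, with 1334 in GFP- and 2117 in Tomato- cells. Every Tomato+ library was below the Tomato- library for Mef2c, so this check did not single out the Tomato+ cells. Members, lists and the naming rule were chosen with earlier results of these data known.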

Additional observations from a re-analysis of the deposited data

Results flagged for a closer look

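For 4 of the 6 genes every GFP+ library was above the GFP- library while every Tomato+ library was below the Tomato- library, as for 11.6% of all genes. The difference between the 2 lines was not tested, since each negative population is 1 library. The mean log2 ratio of GFP+ to GFP- minus that of Tomato+ to Tomato- was 7.22 for Upk3b (5.94 and -1.28), from 4 reads in the GFP- library. It was 4.47 for Wt1 (3.92 and -0.55) and 3.25 for Lrrn4 (2.86 and -0.40). For Bnc1 it was 2.55 (2.165 and -0.38). For Wt1 and Lrrn4, replicates 1 and 3 of the Tomato+ cells lay inside the counting interval of the Tomato- value (370 to 471 and 41.9 to 80.5). Bnc1 nearly misses the pattern at replicate 2 of the Tomato+ cells, with 285 normalized reads against 287 in Tomato- cells (counting interval 248 to 331). Under totals without mitochondrial genes this order turned, and 3 of the 6 genes and 8.13% of all genes showed the pattern.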

How the results depend on the processing

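No gene of the 6 changed direction between GFP+ and Tomato+ cells in any of the 17 alternatives. With replicates 1 and 3 averaged, 1436 genes were higher and 1493 lower, against 3186 and 3224. Of the 6 genes 1 was then called higher and 0 lower, and Tcf21 (log2 fold change 1.44), Upk3b (1.15), Bnc1 (0.66) and Bnc2 (-0.48) missed the threshold. The other proepicardial list then had 7 higher and 1 lower, the mesothelial list 3 higher and the WT1 targets 2 lower. The proepicardial list had 2 lower in edgeR and also 2 with all 8 libraries in 1 fit. Wt1 passed in DESeq2 (0.78). Bnc1 missed the threshold with totals without mitochondrial genes (0.77). Deviations of same-numbered libraries correlated at 0.01 to 0.02, which cannot decide whether replicate numbers pair the libraries, since a shared batch was not tested. With a replicate block Bnc1 kept its log2 fold change of 0.91 but lost its call (limma adjusted p = 0.103), and no other call among the 6 changed. Single libraries left out gave 2068 to 4038 genes higher and 2134 to 3875 lower, 2 to 4 of the 6 genes higher and 1 lower. The log2 fold change then ranged from 0.48 to 1.10 for Wt1, 1.34 to 1.76 for Tcf21, 1.15 to 1.92 for Upk3b, 3.36 to 3.67 for Lrrn4, 0.74 to 1.20 for Bnc1 and -0.64 to -0.49 for Bnc2. The proepicardial list had 7 to 11 higher and 1 to 4 lower. Against the negative libraries a pseudocount of 5 gave log2 ratios of 3.77 for Wt1 and 5.04 for Upk3b (GFP+ to GFP-) and 0.58 for Tcf21 (Tomato+ to Tomato-). Totals without mitochondrial genes gave 0.74 for Tcf21 and 0.41 for Bnc2 (Tomato+ to Tomato-). Averaging leaves 2 values per group, and the causes of the other shifts were not tested. Depth limits the ratio of Upk3b to GFP- cells, which rests on 4 reads.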
